A study of Mus musculus with 7 samples.

Results

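The 10 genes described here belong to the Wnt pathway and were followed in mouse embryonic stem cells with and without a hairpin RNA against Mettl3. They are the coreceptor gene Lrp6, the secreted inhibitor gene Dkk1, the cytoplasmic inhibitor gene Nkd1, the scaffold genes Apc and Axin2, the beta-catenin gene Ctnnb1, the DNA-binding factor genes Tcf7, Tcf7l1 and Tcf7l2, and the target gene Sp5. Members were the exon-level probe sets whose gene symbol on the array platform is exactly one of these names. By this rule 9 of the 10 genes were found, with 166 of 1201338 probe sets. No probe set carries the symbol Tcf7l1, and 17 probe sets with its older name Tcf3 are described apart from the members.

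All cells were J-1, an established line of mouse embryonic stem cells, and every sample had a lentiviral infection that delivered a short hairpin RNA, followed by growth in full media. The control hairpin (3 arrays) targeted luciferase, for which these cells have no gene. Hairpin 1 against Mettl3 was used for 2 arrays and hairpin 2 against Mettl3 for another 2. Mettl3 is the methyltransferase that places N6-methyladenosine on RNA, and a hairpin lowers its RNA without removing the gene. Whether the arrays of a group stand for separate cultures is not labelled, so the p-values rest on a spread that may be technical only.

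In the absence of a Wnt signal, a destruction complex built on Apc and Axin proteins marks beta-catenin for degradation. When a Wnt protein binds a Frizzled receptor and its coreceptor Lrp5 or Lrp6, this complex is held back, and beta-catenin enters the nucleus and acts through TCF and LEF proteins. Axin2, Sp5, Nkd1 and Dkk1 are themselves transcribed in response, and their RNA is a common readout of the pathway. In mouse embryonic stem cells the pathway favours self-renewal, and Tcf7l1 acts mainly as a repressor of genes of the pluripotent state. In these data the pathway was seen as RNA only; the protein level and location of beta-catenin were not analysed here.

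TCF and LEF proteins recognise a short DNA core, and the promoters of the 2 response genes that hold its letters are shown because the RNA of these genes is used to read the pathway. The letters CTTTGAA and CTTTGAT were searched on both strands in the 250 bases before the annotated start of each gene (RefSeq, GRCm38.p6), and matches on opposite strands were allowed to overlap. Windows were listed for 8 of the 10 genes, all but Lrp6 and Apc. A match was found in 2 of the 11 windows of these 8 genes and in 7.48% of 32851 windows of all genes. The Sp5 window lies at chr2:70474673-70474922 on the plus strand, and its match begins 104 bases before the start. The Dkk1 window lies at chr19:30549497-30549746 on the minus strand, and its match begins 117 bases before the start. Both are printed 5′ to 3′ along the gene, with the match in capitals.
Sp5: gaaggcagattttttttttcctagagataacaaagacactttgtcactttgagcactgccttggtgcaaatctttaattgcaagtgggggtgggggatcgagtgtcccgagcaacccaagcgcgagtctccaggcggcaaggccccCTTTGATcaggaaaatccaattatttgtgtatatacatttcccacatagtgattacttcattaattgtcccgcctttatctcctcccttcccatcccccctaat
Dkk1: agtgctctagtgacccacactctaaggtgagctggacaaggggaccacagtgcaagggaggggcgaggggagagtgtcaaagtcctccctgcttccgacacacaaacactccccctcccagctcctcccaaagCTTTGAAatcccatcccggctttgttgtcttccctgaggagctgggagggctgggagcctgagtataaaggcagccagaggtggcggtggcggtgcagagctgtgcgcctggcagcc
A match of letters is a description of the window and not evidence of binding. Neither gene passed the test on gene values, and their values by array are given with their roles.

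Values are on the log2 scale, so that fold changes appear as differences. A gene's value on an array is the median of its bright probe sets, those whose mean over the 7 arrays exceeded 6.02, the median of all probe sets (the brightness limit), and a gene needed at least 3 of them. Probe sets of a gene differ in level, so this median can rest on different probe sets on different arrays. Over all probe sets the arrays had like levels, with medians of 6.03 to 6.07 on the log2 scale. Medians of the gene values, which the tests use, spread more, from 8.17 (luciferase replicate 3) to 8.30 (hairpin 2 replicate 2). Luciferase replicate 3 and hairpin 1 replicate 2 had the lowest scores of the 7 arrays on the second principal component (21.4% of variance across genes), and without both of them 0 of 9 members passed as well. Mettl3 itself, which checks the labels, was at 10.38, 10.46 and 10.14 on the luciferase arrays, 8.97 and 8.67 with hairpin 1 and 8.71 and 8.66 with hairpin 2. All 4 knockdown arrays lay below all 3 controls, and Mettl3 fell 2.97-fold for the mean of both hairpins (limma adjusted p = 0.000118). None of 10 markers of embryonic stem cells passed the test (1 at an unadjusted limma p below 0.05, median difference -0.06), and their mean level was 11.97 to 12.11 with luciferase, 11.89 to 12.03 with hairpin 1 and 12.03 to 12.06 with hairpin 2. Some markers of other cell types did move with the hairpins. Of 6 mesoderm and primitive streak markers, 1 fell and 0 rose (median difference -0.12). None of 5 endoderm markers passed (median difference -0.08). The keratin genes Krt8 and Krt18 were the 2 of 5 trophectoderm markers that rose, the neural genes Map2 and Nes rose and Sox1 fell among 5 neuroectoderm markers, and Acta2 (1.07) and Tagln (0.78) rose among 9 tested fibroblast markers. The other 7 fibroblast markers did not pass: Fn1 was at 0.17, and Col1a1, Col1a2, Col3a1, Thy1, Vim and Postn were between -0.18 and -0.07, so that the median of the 9 was -0.11. The mean level of the fibroblast markers was 8.38 to 8.40 with luciferase, 8.61 to 8.62 with hairpin 1 and 8.41 to 8.43 with hairpin 2. The mean level of the trophectoderm markers was 7.69 to 7.84 with luciferase, 8.25 to 8.27 with hairpin 1 and 7.97 to 8.08 with hairpin 2. That of the neuroectoderm markers was 7.61 to 7.74, 7.89 to 7.97 and 7.90 to 8.04. Their part in the results on Wnt genes was not tested, and in bulk RNA a change in the number of cells and a change in RNA per cell cannot be told apart.

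The first question was whether the pathway's own components and response genes differed between cells with a Mettl3 hairpin and control cells. None of the 9 genes passed the test for the mean of both hairpins minus luciferase, and their values differed from the control by 1.16-fold at most. Of the 9, 4 were higher and 5 lower, with log2 fold changes from -0.21 (Axin2) to 0.13 (Lrp6) and a median of -0.06. Over all 16396 genes tested, 7.86% passed at a limma adjusted p below 0.05 (5.5% higher and 2.36% lower), and the median was 0.00041. At an unadjusted limma p below 0.05, 1 member (Axin2) and 24.2% of all genes stood out. The median size of the difference, regardless of direction, was 0.11 for the members and 0.12 for all genes. The 95% intervals of the 9 genes together reached from -0.42 to 0.32, that is to 1.34-fold lower and 1.25-fold higher, so differences beyond these lay outside every member's interval.

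**Figure D1:**
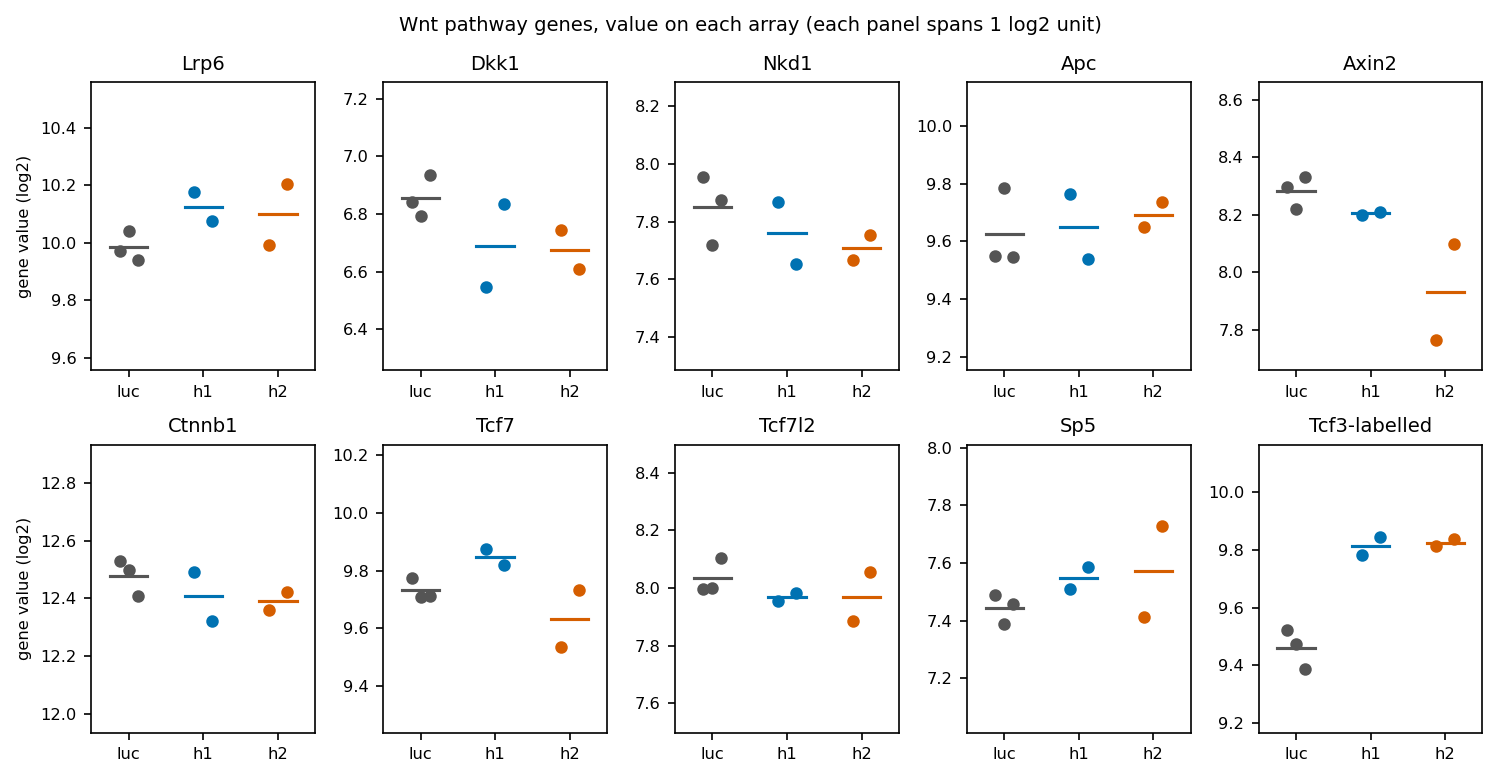
Gene value on the log2 scale (vertical axis) on each array, one panel per gene, for luciferase (luc), hairpin 1 (h1) and hairpin 2 (h2); points are arrays, bars are group means, and every panel spans 1 log2 unit. Axin2 is the member whose 4 knockdown arrays all lie below the controls, and the Tcf3-labelled probe sets lie at 9.78 to 9.85 against 9.39 to 9.52.

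At the cell surface, the coreceptor gene Lrp6 was at 9.97, 10.04 and 9.94 with luciferase, 10.18 and 10.08 with hairpin 1 and 9.99 and 10.21 with hairpin 2. Of the knockdown arrays, 3 lay above all controls and 1 lay among them. These medians came from different probe sets on different arrays. The 9.99 of hairpin 2 replicate 1 was that of 5511634, the 1 bright probe set of Lrp6 that was lower with the hairpins (-0.06). The difference for both hairpins was 0.13 ± 0.084 (SE; 95% interval -0.06 to 0.31, limma adjusted p = 0.387). It was nearly the same with each hairpin, 0.14 and 0.11. Lrp6 is also a gene for which the way of combining its probe sets decided the call. Of its 27 probe sets above the brightness limit, 26 were higher with the hairpins, with a median of 0.19, and the median-polished gene value rose by 0.21 (95% interval 0.10 to 0.32, limma adjusted p = 0.0255, where 15.1% of all genes passed). With the mean of its probe sets the rise was 0.20 (adjusted p = 0.0495, where 17.3% of all genes passed).

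The secreted inhibitor gene Dkk1, whose protein blocks Lrp5 and Lrp6, was at 6.84, 6.79 and 6.93 with luciferase, 6.55 and 6.83 with hairpin 1 and 6.75 and 6.61 with hairpin 2. Of the knockdown arrays, 1 lay within the range of the controls and 3 lay below it. The difference was -0.17 ± 0.093 (SE; interval -0.38 to 0.03, limma adjusted p = 0.29). All 6 of its probe sets above the brightness limit were lower, with a median of -0.26. With the mean of these probe sets Dkk1 fell by 0.24 (limma adjusted p = 0.0273), and with the median polish it was at -0.18 (adjusted p = 0.14). These 6 probe sets share the same arrays and the same RNA, so their agreement is not that of replicates. Dkk1 was also the dimmest member, with a control mean of 6.86, and 6 of its 8 probe sets passed the brightness limit of 6.02. That limit is the median of all probe sets and not a level of detection, so the values of Dkk1 rest on low signal.

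Nkd1, which encodes an inhibitor that binds Dishevelled proteins in the cytoplasm, was at 7.96, 7.72 and 7.88 with luciferase, 7.87 and 7.65 with hairpin 1 and 7.67 and 7.75 with hairpin 2. The groups overlapped, and the difference was -0.11 ± 0.091 (SE; interval -0.32 to 0.09, adjusted p = 0.478 in limma). Of its 10 bright probe sets, 4 were higher and 6 lower.

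Of the destruction complex, Apc overlapped between the groups, with 9.55, 9.79 and 9.55 for luciferase, 9.76 and 9.54 for hairpin 1 and 9.65 and 9.74 for hairpin 2. The difference was 0.05 ± 0.095 (SE; interval -0.17 to 0.26, limma adjusted p = 0.81). The control value of 9.79 was that of probe set 4577254. On the other arrays the median was that of 4805031, which was at 9.60 on luciferase replicate 2, so the overlap partly reflects this switch. Of the 23 bright probe sets, 19 were higher and 4 lower, with a median of 0.08. With the mean of the probe sets the difference was 0.12 (limma adjusted p = 0.207). Among the 23, 5492583 differed by 0.75 (limma adjusted p = 0.146 over all probe sets). On the luciferase arrays that probe set was at 6.58, 6.48 and 5.89, and on the knockdown arrays at 7.23, 6.54, 7.41 and 7.08. It was named after its value was seen, and the array annotation used here does not place it in an exon.

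Axin2, which encodes the scaffold that the pathway itself induces, showed the largest difference among the members. It was at 8.30, 8.22 and 8.33 with luciferase, 8.20 and 8.21 with hairpin 1 and 7.76 and 8.10 with hairpin 2. All 4 knockdown arrays lay below the controls, though the hairpin 1 arrays did so by little, and hairpin 2 replicate 1 was the lowest. Such an order was seen in 1 of 9 members, and in 8.38% of all genes for lower and 13.4% for higher arrays. The difference was -0.21 ± 0.094 (SE; interval -0.42 to -0.0049, limma adjusted p = 0.197), a 1.16-fold lower value. Without hairpin 2 replicate 1 it was -0.13 (limma adjusted p = 0.432). Of its 16 probe sets, all of them above the brightness limit, 14 were lower, with a median of -0.19.

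Ctnnb1, which encodes beta-catenin, was at 12.53, 12.50 and 12.41 with luciferase, 12.49 and 12.32 with hairpin 1 and 12.36 and 12.42 with hairpin 2. The groups overlapped. The difference was -0.08 ± 0.081 (SE; interval -0.26 to 0.10, limma adjusted p = 0.595), and 17 of its 20 probe sets were lower, with a median of -0.07. Beta-catenin is controlled mainly through degradation of the protein, which RNA levels do not show.

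In the nucleus, Tcf7, which encodes a factor that mostly activates targets together with beta-catenin, was at 9.78, 9.71 and 9.71 with luciferase, 9.88 and 9.82 with hairpin 1 and 9.53 and 9.73 with hairpin 2. Both hairpin 1 arrays lay above the controls, and hairpin 2 replicate 1 lay below them. The mean of both hairpins thus differed by 0.0084 ± 0.081 (SE; interval -0.17 to 0.19, limma adjusted p = 0.963). Single probe sets gave another picture, since 18 of 19 were higher with the hairpins, with a median of 0.13. The gene value was that of 1 probe set, 5114944, on luciferase replicates 1 and 2, hairpin 1 replicate 1 and both hairpin 2 arrays. It thus followed a probe set of middle level more than the 19 together. With hairpin 2 alone the gene value was at -0.10 while 15 of 19 probe sets were higher. With the mean of the probe sets the difference for both hairpins was 0.13 (limma adjusted p = 0.125), so no call was made in that way either.

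Tcf7l2, which encodes a related factor, was at 8.0, 8.0 and 8.11 with luciferase, 7.96 and 7.98 with hairpin 1 and 7.88 and 8.06 with hairpin 2. The difference was -0.06 ± 0.080 (SE; interval -0.24 to 0.11, limma adjusted p = 0.666). Of its 28 bright probe sets, 15 were higher and 13 lower.

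Sp5, a zinc finger factor gene and direct target of beta-catenin, was at 7.49, 7.39 and 7.46 with luciferase, 7.51 and 7.59 with hairpin 1 and 7.41 and 7.73 with hairpin 2. Of the knockdown arrays, 3 lay above the controls and 1 among them. The difference was 0.11 ± 0.092 (SE; interval -0.09 to 0.32, limma adjusted p = 0.484). Of its 8 bright probe sets 4 were higher and 4 lower, and probe set 4622564, named after its value was seen, differed most (0.66, limma adjusted p = 0.0968). Of the 4 genes used to read the pathway, Axin2, Dkk1 and Nkd1 lay below the control mean in the main test and Sp5 above it. None of them passed that test. With the median polish all 4 lay below the control mean (Axin2 -0.18, Dkk1 -0.18, Sp5 -0.05, Nkd1 -0.0037). With the mean of the probe sets Axin2 (-0.20) and Dkk1 (-0.24) lay below it, and Nkd1 (0.01) and Sp5 (0.10) above it. The sides of Sp5 and Nkd1 thus depended on the summary.

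**Figure D2:**
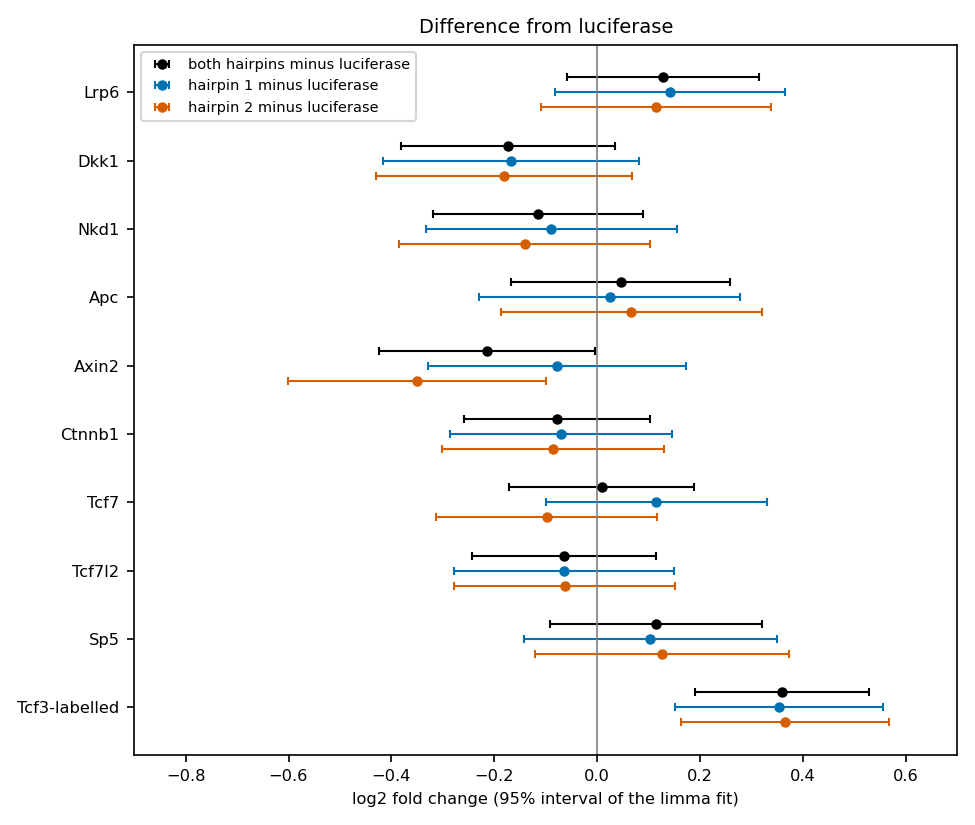
Log2 fold change against luciferase (horizontal axis) for both hairpins (black), hairpin 1 (blue) and hairpin 2 (orange), with 95% intervals of the limma fit. Intervals for both hairpins cross 0 for 8 of the 9 members, Axin2 being the exception at -0.42 to -0.0049, and the Tcf3-labelled probe sets lie at 0.36.

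The 17 probe sets labelled Tcf3 stand apart from the members by name and, in the main test, by passing it. With the mean and with the median polish their value rose by 0.26. Lrp6, which also passed there, rose by 0.20 and 0.21. In the RefSeq gene table, Tcf3 is an older name of Tcf7l1 and also the present symbol of an E protein gene, while Tcfe2a is an older name of that E protein gene. The platform uses Tcf3 and Tcfe2a for separate sets of probe sets, so its Tcf3 most likely stands for Tcf7l1, but the annotation gives no accession that would settle it. The Tcf3-labelled value was 9.52, 9.47 and 9.39 with luciferase, 9.78 and 9.85 with hairpin 1 and 9.81 and 9.84 with hairpin 2. All 4 knockdown arrays lay above the controls, and the 2 hairpins nearly coincided. The value rose by 0.36 ± 0.076 (SE; interval 0.19 to 0.53, limma adjusted p = 0.0193), or 1.28-fold. Adjusted p was 0.0508 with hairpin 1 and 0.0593 with hairpin 2 alone in limma, and 15 of its 17 probe sets were higher, with a median of 0.30. The call was lost without luciferase replicate 1 (adjusted p = 0.0546), luciferase replicate 3 (0.0692), hairpin 2 replicate 1 (0.0541) or hairpin 2 replicate 2 (0.0737), without luciferase replicate 3 and hairpin 1 replicate 2 together (0.104) and with no brightness limit (0.0617), all in limma. The Tcf3-labelled value was called in 10 of 19 alternatives (0.26 to 0.39), and the fits just named are only some of the rest. The 24 probe sets labelled Tcfe2a were at 0.22 (limma adjusted p = 0.118). If the label is read as Tcf7l1, 1 of 10 genes passed in place of 0 of 9.

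The 2 hairpins were then set against the control one by one and against each other. None of the 9 members passed with hairpin 1 (5.89% of all genes did, 3.98% higher and 1.92% lower) or with hairpin 2 (3.75%, 2.68% higher and 1.07% lower), by limma adjusted p. None passed between the hairpins either (0.104% of all genes, 0.0549% higher and 0.0488% lower). At an unadjusted limma p below 0.05 there were 0, 1 and 0 members, against 22.2%, 18.7% and 8.72% of all genes. Both comparisons with luciferase share the same 3 control arrays. Median differences of the members were -0.06 with hairpin 1 and -0.09 with hairpin 2, where all genes had medians of -0.0055 and 0.01. Axin2 was at -0.08 with hairpin 1 (interval -0.33 to 0.17) and at -0.35 with hairpin 2 (interval -0.60 to -0.10, limma adjusted p = 0.126). The difference between the hairpins for Axin2 was 0.27 (interval -0.0018 to 0.55, limma adjusted p = 0.575). For Tcf7 it was 0.21 (interval -0.02 to 0.45, limma adjusted p = 0.615). The other 7 members lay between -0.04 (Apc) and 0.052 (Nkd1). With the mean of the probe sets, Axin2 fell by 0.30 with hairpin 2 (limma adjusted p = 0.0314, where 9.94% of all genes passed) and Dkk1 fell by 0.26 with hairpin 1 (limma adjusted p = 0.0487, where 13.7% passed).

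Exon arrays also show how the parts of one gene move among themselves. Of the 157 member probe sets above the brightness limit, none passed for both hairpins, where 2.15% of 234924 probe sets did (1.61% higher and 0.532% lower), and 91 were higher and 66 lower. At an unadjusted limma p below 0.05 there were 23, which is 14.6%, against 18.1% of all probe sets. Lrp6 held 10 of these 23. None passed with hairpin 1 (1.27% of all probe sets did), with hairpin 2 (0.386%) or between the hairpins (0), by adjusted p. With an unadjusted limma p below 0.05 there were 19, 20 and 8 member probe sets, or 12.1%, 12.7% and 5.1%, against 17%, 13.4% and 6.6% of all. With the stricter brightness limit, 4 of 121 member probe sets rose, in Apc and Lrp6, which is 3.31% against 5.44% of all probe sets called at that limit. Usage of exons, tested as unequal change of the probe sets of a gene with limma's diffSplice, was called in none of the 9 members, against 4.9% of all genes. With hairpin 1, hairpin 2 and between the hairpins it was called in none either, against 4.81%, 2.16% and 0.0549% of all genes. For both hairpins the smallest adjusted p among the members was that of Apc (0.162 by diffSplice), with an unadjusted p of 0.0152, and no other member was below 0.05 unadjusted. Unadjusted p was below 0.05 for Nkd1 with hairpin 1 (0.0438) and for Apc (0.0173) and Sp5 (0.0314) with hairpin 2, all by limma's diffSplice. For both hairpins, Apc passed without hairpin 1 replicate 2 (5.2% of all genes did) and Lrp6 with no brightness limit (3.58%).

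**Figure D3:**
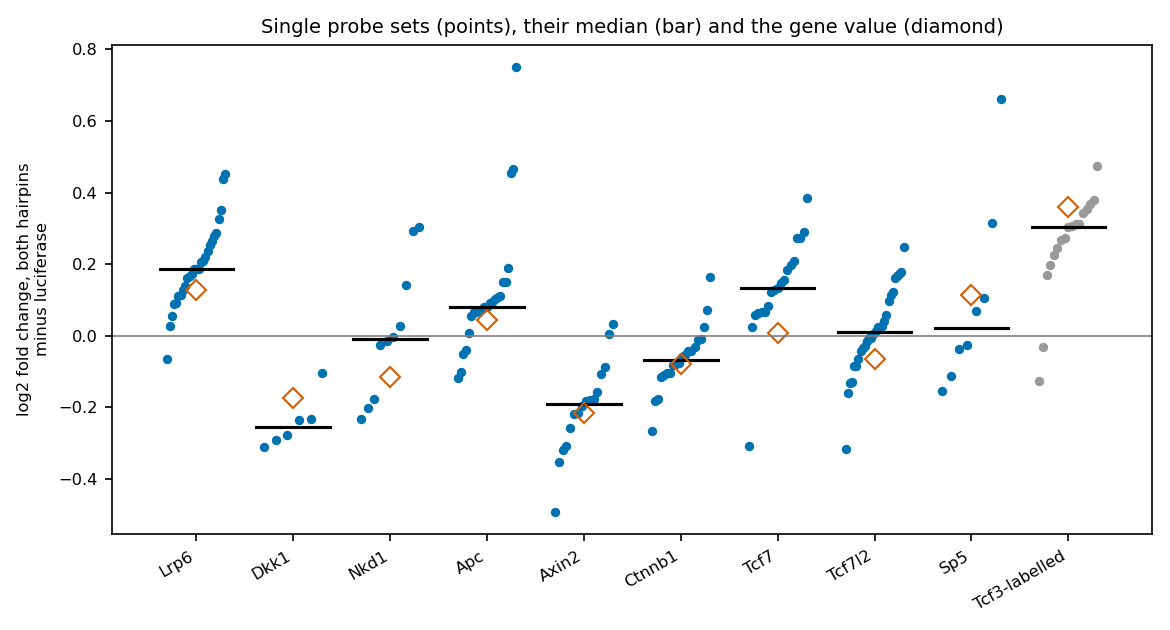
Log2 fold change of single probe sets for both hairpins minus luciferase (vertical axis), sorted within each gene; the black bar is their median and the open diamond the gene value of the main test. In Lrp6 26 of 27 and in Dkk1 6 of 6 points lie on one side of 0, and for Tcf7 the diamond (0.0084) lies below the median of the probe sets (0.13).

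Other genes of the pathway were set beside the 9 members. Their lists were chosen with earlier results of these data known, so the shares called cannot show whether the members are typical. Of 105 further genes, grouped by role, 103 were tested, all but Wnt1 and Fzd9. For both hairpins 7 rose and 4 fell, which is 10.7% against 7.86% of all genes, and their median was -0.03. At the production end, Wls rose the most: it encodes the carrier that Wnt proteins need to leave the cell. It was at 6.72, 6.80 and 6.66 with luciferase, 7.84 and 7.35 with hairpin 1 and 7.51 and 7.74 with hairpin 2. The groups were well separated, and the rise was 0.88 ± 0.121 (SE; limma adjusted p = 0.00279), or 1.85-fold. The ligand gene Wnt7b was at 7.17, 7.14 and 7.49 with luciferase, 8.02 and 8.08 with hairpin 1 and 8.07 and 7.89 with hairpin 2, a rise of 0.75 ± 0.103 (SE; limma adjusted p = 0.00279), or 1.68-fold. Both genes rose with each hairpin alone (Wls limma adjusted p = 0.00845 and 0.0103, Wnt7b 0.00685 and 0.0135). On the control arrays both lay below the median gene values of the arrays (8.17 to 8.30), and Wls lay not far above the brightness limit of 6.02. That limit applies to the mean of all 7 arrays, so higher knockdown values can help a probe set pass it. Over 18 alternatives the rise was 0.61 to 1.01 for Wls and 0.53 to 0.86 for Wnt7b, called in all 18. Another ligand gene, Wnt9b, fell by 0.42 (limma adjusted p = 0.0408). The other 16 tested ligand and secretion genes did not pass, and the median of the 19 was -0.10.

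Among 20 receptors and agonists, the receptor gene Fzd3 (0.47, limma adjusted p = 0.0249) and the coreceptor gene Lrp5 (0.42, limma adjusted p = 0.0133) rose and none fell. Lrp5, the close relative of Lrp6, was at 9.01, 8.87 and 8.94 with luciferase, 9.44 and 9.33 with hairpin 1 and 9.26 and 9.41 with hairpin 2, without overlap. None of 17 genes of the destruction complex and the cytoplasmic relay passed (2 had an unadjusted limma p below 0.05); the largest differences were the kinase gene Csnk1e (0.20, limma adjusted p = 0.135) and the Dishevelled gene Dvl3 (0.19, limma adjusted p = 0.175). Among 12 nuclear partners, the corepressor gene Tle3 rose by 0.35 (limma adjusted p = 0.02). Of 19 inhibitors, Sfrp2 rose by 0.52 (limma adjusted p = 0.0375) and Wif1 fell by 0.39 (limma adjusted p = 0.0494); both encode secreted proteins that bind Wnt ligands.

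Of 10 genes known to be induced by beta-catenin, 1 fell, the growth regulator gene Myc (-0.43, limma adjusted p = 0.0117), and none rose. Their median was -0.08. With luciferase, Ccnd1 (11.58) and Myc (10.99) lay well above the median gene values of the arrays (8.17 to 8.30). The rest of the list lay below them, from Cdx4 (6.62) to Cdx2 (8.03), so most of it was read at low signal. Of 6 genes that Tcf7l1 is known to hold down in embryonic stem cells, Tbx3 fell by 0.62 (limma adjusted p = 0.00358) and Klf2 rose by 0.37 (limma adjusted p = 0.0212). Both encode factors of the naive pluripotent state. Nanog (-0.08, limma adjusted p = 0.517) and Esrrb (-0.11, adjusted p = 0.464 in limma), which belong to the same group and to the embryonic stem cell markers, did not pass. Calls of Wls, Wnt7b and Tbx3 held without any single array. Those of Sfrp2, Tle3, Wif1 and Wnt9b were each lost in 6 of the 7 fits that left out 1 array, those of Fzd3 and Klf2 in 5, that of Myc in 2 (without luciferase replicate 1 or hairpin 2 replicate 2) and that of Lrp5 without hairpin 2 replicate 2.

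**Figure D4:**
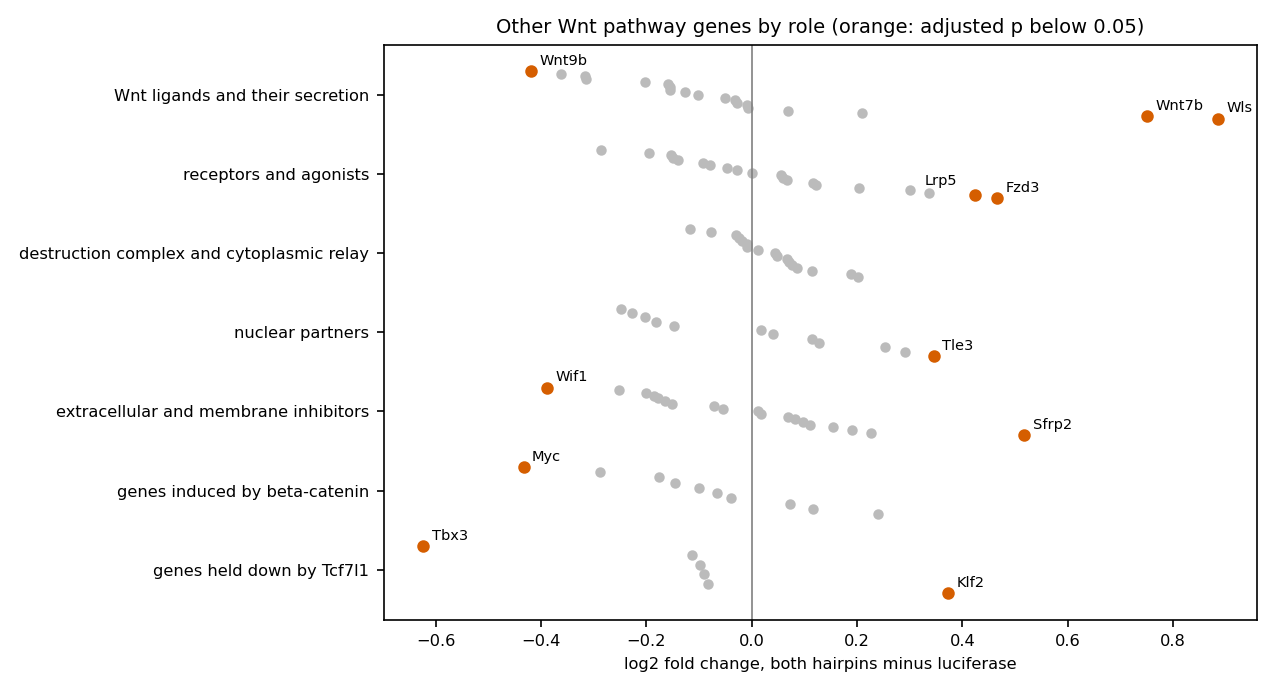
Log2 fold change for both hairpins minus luciferase (horizontal axis) of the 103 other tested Wnt pathway genes, one row per role, sorted within a row; orange points with names have an adjusted p below 0.05 and grey points do not. Wls (0.88) and Wnt7b (0.75) lie furthest to the right and Tbx3 (-0.62) furthest to the left.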

How the data were processed

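RNA of 7 samples was hybridised to Affymetrix mouse exon arrays. The authors deposited a log2 value for each exon-level probe set and array. The submitters' processing notes list RMA and R 2.11.1; for package, probe set definition and genome build, nothing is given in the sources used here. Because RMA equalises the arrays' distributions, a shift shared by most transcripts would be hidden. Gene symbols came from the platform annotation (311384 probe sets with 1 symbol, 6385 with several, which were left out, and 883569 with none); 44840 older symbols were updated through synonyms in RefSeq (GRCm38.p6), but never onto a symbol the platform also uses.

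On each array a gene took the median of those probe sets with 1 symbol whose mean over the 7 arrays exceeded the median of all probe sets (6.02), with at least 3 such probe sets. limma 3.58.1 (lmFit, eBayes; R 4.3.3) was fitted to all 7 arrays, with 4 residual degrees of freedom, and p-values were adjusted by Benjamini-Hochberg over all 16396 genes, 234924 probe sets, or all genes for exon usage (diffSplice); an adjusted p below 0.05 was a call. The number of arrays limits the precision. Both tests were tried on simulated data; the exon usage test called too many unchanged genes there.

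The members and lists were chosen with earlier results of these data known. Named were all members, Mettl3, and up to 4 called genes per role that changed most, or, in a role with none, the 2 genes that differed most; other names, such as single probe sets, Nanog and Esrrb, were chosen after their values were seen. Replicate numbers are shared between groups but are not said to mark a batch, so no pairing was used. Deviations of same-numbered arrays correlated at -0.263 to 0.0841. In a group of 2 arrays the 2 deviations mirror each other, so this check holds little information. Alternatives were other brightness limits, summaries, scalings, spread models and blocks, single groups, and leaving out each array.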

Additional observations from a re-analysis of the deposited data

How the results depend on the processing

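That no member passed for both hairpins held in 16 of the 19 alternatives. With the mean of the probe sets 2 passed (Lrp6 and Dkk1) and with the median polish 1 (Lrp6); more of all genes passed there as well. With the Tcf3-labelled probe sets counted as Tcf7l1, added after the data were seen, 1 passed. With the mean, 1 member passed with hairpin 1 and 1 with hairpin 2; the comparison between hairpins gave 0 throughout. Member probe sets called were 4 with the stricter brightness limit (3.31%, against 5.44% of all) and 0 to 1 without single arrays (Sp5, without luciferase replicate 2: 0.637%, against 0.443% of all). Members called for exon usage were 1 with no brightness limit and 0 to 1 without single arrays (Apc, without hairpin 1 replicate 2).

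Of the other pathway genes, 11 were called, against 5 with no brightness limit, 28 with the mean, 20 with the median polish, 5 with the replicate block, 3 to 12 without single arrays, and 7 without luciferase replicate 3 and hairpin 1 replicate 2 together (added after the data were seen). With the replicate block no member passed, 538 of all genes did, and the Tcf3-labelled value was 0.32 (limma adjusted p = 0.127). The labels do not say whether shared replicate numbers mark a batch. With hairpin 1 numbers crossed, an added alternative, 0 members and 6 other pathway genes were called.

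Values of uncalled members near 0 changed sign: Sp5 to -0.0203 with the stricter limit and -0.0464 with the polish; Tcf7l2 to 0.0308 with the stricter limit, 0.0131 with the mean and 0.0161 with the polish; Nkd1 to 0.0109 with the mean; Apc to -0.0133 after quantile normalization and -0.0106 after centring; Tcf7 to -0.046 after quantile normalization, -0.0475 after centring and -0.0024 with either block. Without single arrays Apc ranged from -0.0105 to 0.125 and Tcf7 from -0.0415 to 0.0582. The uncalled values of the others kept their sign but varied: Lrp6 0.07 (without hairpin 2 replicate 2) to 0.18, Dkk1 -0.25 to -0.10 (without hairpin 1 replicate 1), Sp5 0.04 (without hairpin 2 replicate 2) to 0.19 (without hairpin 2 replicate 1), Nkd1 -0.18 (without luciferase replicate 2) to -0.06 (without hairpin 1 replicate 2; also luciferase replicate 1), Ctnnb1 -0.12 to -0.04 (without hairpin 1 replicate 2), Tcf7l2 -0.11 (without hairpin 2 replicate 2) to -0.02 (without hairpin 2 replicate 1; -0.03 without luciferase replicate 3) and Axin2 -0.30 to -0.13 (without hairpin 2 replicate 1). Axin2, Dkk1, Ctnnb1 and Lrp6 kept their sign in all alternatives run. Merging Tcfe2a into the Tcf3-labelled set gave 0.29 (limma adjusted p = 0.0529). The causes were not tested.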
